A study of Mus musculus with 10 samples.

Results

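Etv1, Etv4 and Etv5 encode the PEA3 group of ETS transcription factors, also known as ER81, PEA3 and ERM. These 3 genes were chosen by name, with earlier results of these data known. They were followed among the 26312 genes measured in sorted luminal cells of the mouse mammary gland. All 3 passed the filter on low values (a mean of at least 10 normalized read counts). Wild-type mice, labelled RSK2(+/+) and called WT below, were compared with mice labelled RSK2(-/-), called KO. RSK2 is an ERK-activated kinase encoded by Rps6ka3. The WT group had 3 libraries of estrus and 2 of diestrus, and the KO group likewise had 3 and 2. All mice were C57BL/6J and 12 weeks old, and RNA came from 50000 cells sorted as EpCAM high, CD49f low, Sca-1 positive and CD49b negative, a gate that holds the hormone-sensing luminal cells. The labels do not say whether each library came from 1 mouse or from a pool, nor how the RSK2 gene was disrupted, so p-values measure the spread between libraries.

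PEA3 factors bind DNA through an ETS domain and are transcribed in response to receptor tyrosine kinase and ERK signalling. In resting cells the repressor Capicua (Cic) holds their genes down, and phosphorylation by ERK and by RSK kinases releases it. The proteins themselves are short-lived and are marked for destruction by the ubiquitin ligase COP1. In epithelia that branch, including the mammary gland, the lung and the kidney, they act downstream of FGF and RET receptors.

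The deposited values are normalized read counts, rounded to whole numbers and not divided by gene length. They added up to between 14108057 and 15307238 per library. Rps6ka3 was not lower in the KO libraries: it had 136, 128 and 137 counts in WT estrus 1, 2 and 3, 158, 156 and 164 in KO estrus, 165 and 139 in WT diestrus 1 and 2, and 156 and 165 in KO diestrus. This count covers the whole gene, so it does not check the genotype labels. The 3 KO estrus libraries scored 37.39 to 55.84 on a leading principal component (29.33% of the variance), apart from the other 7 at -33.06 to -5.497. Of the hormone-sensing markers, Esr1 had 1468 to 3334 counts, Foxa1 2585 to 5650 and Prlr 26088 to 48303 over the libraries. Tnfsf11 had at most 38 and was at 0 in WT estrus 1, KO estrus 1 and KO estrus 2. At diestrus Areg had 22596 and 22754 counts in WT against 11312 and 11845 in KO. Prom1 went the other way, with 6764 and 8146 in WT against 12984 and 13432 in KO diestrus. The summed counts of all 14 hormone-sensing markers ran from 382272 to 542194. They came mostly from the keratin genes Krt8, Krt18 and Krt19, so the sum can hide such shifts.

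All 3 PEA3 genes were lower in KO than in WT cells on average over both stages, by 2.15-fold for Etv1, 3.14-fold for Etv4 and 2.23-fold for Etv5 (from fitted log2 values). Etv5 was also called at estrus alone, and Etv1 and Etv4 had their lowest values in KO diestrus. In WT cells none of the 3 differed detectably between estrus and diestrus. Because the RNA is from bulk samples, fewer expressing cells and less RNA per cell cannot be told apart.

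**Figure D1:**
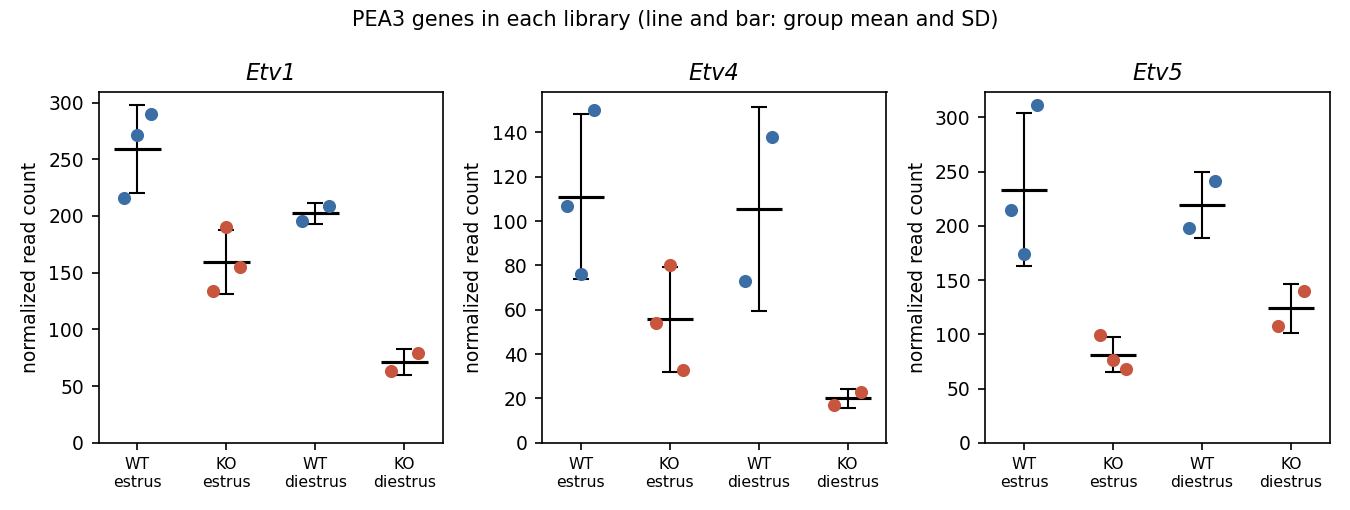
Normalized read count of Etv1, Etv4 and Etv5 (y axis, linear from 0) in each of the 10 libraries (points, WT blue and KO red), by genotype and stage, with the group mean (line) and SD (bar). For Etv1 and Etv5 all KO libraries lie below all WT libraries, and for Etv4 the KO estrus library with 80 counts overlaps the WT libraries with 73 and 76.

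Etv1 (ENSMUSG00000004151, GRCm38 chromosome 12, 38779380 to 38870484, plus strand) is the family member best known from neurons, interstitial cells of the gut and prostate tumours, and its protein is a reported substrate of RSK. It had 216, 271 and 290 normalized counts in WT estrus 1, 2 and 3, and 134, 190 and 155 in KO estrus. At diestrus it had 196 and 209 counts in the WT and 63 and 79 in the KO libraries. The groups did not overlap at either stage, with KO lower, as in 13.1% of genes that passed the filter at estrus and 21.6% at diestrus. The highest KO library, at 190, stood just below the lowest WT library, at 196, a separation seen in 1.15% of these genes. Group means were 259 ± 38.4 (SD, n = 3) in WT estrus, 160 ± 28.3 (n = 3) in KO estrus, 202.5 ± 9.19 (n = 2) in WT diestrus and 71.0 ± 11.3 (n = 2) in KO diestrus. KO cells thus held 61.6% of the WT mean at estrus and 35.1% at diestrus.

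Etv4 (ENSMUSG00000017724, chromosome 11, 101769742 to 101785371, minus strand), the PEA3 protein after which the group is named, had the lowest counts and the widest spread of the 3. Its counts were 107, 76 and 150 in WT estrus 1, 2 and 3, and 54, 80 and 33 in KO estrus. They were 73 and 138 in WT diestrus, and 17 and 23 in KO diestrus. The genotypes overlapped at estrus through KO estrus 2. Both KO diestrus libraries lay below both WT diestrus libraries, as in 21.6% of genes that passed the filter. They also lay below all KO estrus libraries, as in 25.0% of these genes. Means were 111 ± 37.2 (SD, n = 3) and 55.7 ± 23.5 (n = 3) in WT and KO estrus, and 105.5 ± 46.0 (n = 2) and 20.0 ± 4.24 (n = 2) in WT and KO diestrus. The SD was between 21.2% and 43.6% of the mean in the 4 groups, against 4.54% to 17.7% for Etv1.

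Etv5 (ENSMUSG00000013089, chromosome 16, 22381309 to 22439719, minus strand) encodes ERM, which is required in spermatogonial stem cells and acts with Etv4 in kidney branching. It had 215, 174 and 311 counts in WT estrus 1, 2 and 3, and 99, 76 and 68 in KO estrus. At diestrus it had 198 and 241 counts in WT and 108 and 140 in KO. No KO library reached the lowest WT library, as in 1.15% of genes that passed the filter. Unlike Etv1 and Etv4, Etv5 was lowest in KO estrus. Means were 233 ± 70.3 (SD, n = 3), 81.0 ± 16.1 (n = 3), 219.5 ± 30.4 (n = 2) and 124 ± 22.6 (n = 2) in WT estrus, KO estrus, WT diestrus and KO diestrus. The transcripts of any 2 members shared no run of bases longer than 23, and no other annotated gene overlaps any of the 3.

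Sequence upstream of a start site was at hand in RefSeq (GRCm38.p6) for 2 of the 3 members, Etv1 and Etv5, with 2 start sites each. Windows of 250 bases that end just before the start are shown because Capicua is the known repressor of these genes and its octamer has the core TGAATG. Capitals mark this core on either strand (CATTCA is its reverse complement). In order, the lines below give the upstream start of Etv1 (chr12:38779832-38780081, plus strand), the downstream start of Etv5 (chr16:22438369-22438618, minus strand) and its upstream start (chr16:22439571-22439820, minus strand), each 5′ to 3′.
Etv1 upstream start: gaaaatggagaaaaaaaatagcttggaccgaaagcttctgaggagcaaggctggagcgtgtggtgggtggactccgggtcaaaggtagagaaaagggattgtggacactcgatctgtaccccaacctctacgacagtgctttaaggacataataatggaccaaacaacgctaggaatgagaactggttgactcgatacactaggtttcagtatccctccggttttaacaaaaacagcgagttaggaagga
Etv5 downstream start: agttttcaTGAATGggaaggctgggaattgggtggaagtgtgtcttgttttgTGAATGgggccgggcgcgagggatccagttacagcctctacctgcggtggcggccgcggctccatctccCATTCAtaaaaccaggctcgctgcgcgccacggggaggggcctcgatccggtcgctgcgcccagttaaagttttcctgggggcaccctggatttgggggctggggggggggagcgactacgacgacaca
Etv5 upstream start: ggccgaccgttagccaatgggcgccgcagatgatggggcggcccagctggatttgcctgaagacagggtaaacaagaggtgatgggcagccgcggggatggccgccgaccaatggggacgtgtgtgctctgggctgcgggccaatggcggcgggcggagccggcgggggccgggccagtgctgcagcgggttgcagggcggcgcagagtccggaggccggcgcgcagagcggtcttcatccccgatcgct

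The downstream window of Etv5 held the core 3 times, and the other Etv5 window and both Etv1 windows held it 0 times. The downstream Etv5 window and both Etv1 windows lie within the annotated spans of their genes, and the upstream Etv5 window lies partly within. Of all 32851 windows of this length in the table, 10.9% held TGAATG at least once and 0.131% at least 3 times. This core was searched after the sequences had been read. The other octamer core, TCAATG, was not counted on its own. The full octamers TGAATGAA, TGAATGGA, TCAATGAA and TCAATGGA (in 3.19% of windows), the ETS site CCGGAAG (6.91%) and the cyclic AMP response element TGACGTCA (1.55%), each on both strands, were found in none of the 4 windows. These are matches of letters in short windows, and binding was not measured.

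For the genotype difference over both stages, limma fitted all 15180 tested genes on the scale log2(value + 1), with Benjamini-Hochberg adjustment over all of them and a threshold of 0.05. A gene past that threshold is called. All 3 members were called lower in KO, where 0.415% of all tested genes were called lower and 0.665% in either direction. The members were chosen with earlier results of these data known. Their calls and p-values, here and below, are therefore a description and not independent support. Etv1 fell by 1.10 ± 0.15 (SE) on the log2 scale (95% interval of the difference -1.44 to -0.76, adjusted p = 0.0172), the 10th smallest p of all genes. Etv5 fell by 1.16 ± 0.19 (-1.58 to -0.74, adjusted p = 0.0318). Etv4 fell by 1.65 ± 0.30 (-2.30 to -1.01, adjusted p = 0.0437), the largest of the 3 differences and the one with the widest interval.

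An exact two-sided permutation of the genotype labels within each stage, which borrows no spread from other genes, gave p = 0.0167 for Etv1 and for Etv5, the smallest that its 120 arrangements allow, and 0.0333 for Etv4. These are 3 of 12 such single-gene tests and were not adjusted, also not for the choice of the genes with earlier results known. For Etv1 and Etv5 all 5 KO libraries lay below all 5 WT libraries, as they did for 1.15% of the tested genes. Etv4 missed this by KO estrus 2. With any 1 library left out the log2 difference stayed between -1.18 and -1.02 for Etv1, between -1.25 and -1.04 for Etv5 and between -1.88 and -1.42 for Etv4.

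The adjusted p-values were less stable than the differences. The Etv1 call was lost without KO diestrus 1 (limma adjusted p = 0.0987), KO diestrus 2 (0.101), WT diestrus 1 (0.0541) or WT diestrus 2 (0.112). The Etv5 call was lost without KO diestrus 1 (0.153), KO diestrus 2 (0.140), WT diestrus 1 (0.0623), WT diestrus 2 (0.216) or KO estrus 2 (0.0519). The Etv4 call was lost without KO diestrus 1 (0.161), KO diestrus 2 (0.169), WT diestrus 1 (0.0577), WT diestrus 2 (0.253), WT estrus 1 (0.0618), WT estrus 3 (0.0680) or KO estrus 1 (0.0653). Leaving out a diestrus library leaves that group with 1, which the fit assumes to vary like the rest. Over all genes, the 101 calls of this comparison became 0 to 77 with 1 library left out.

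**Figure D2:**
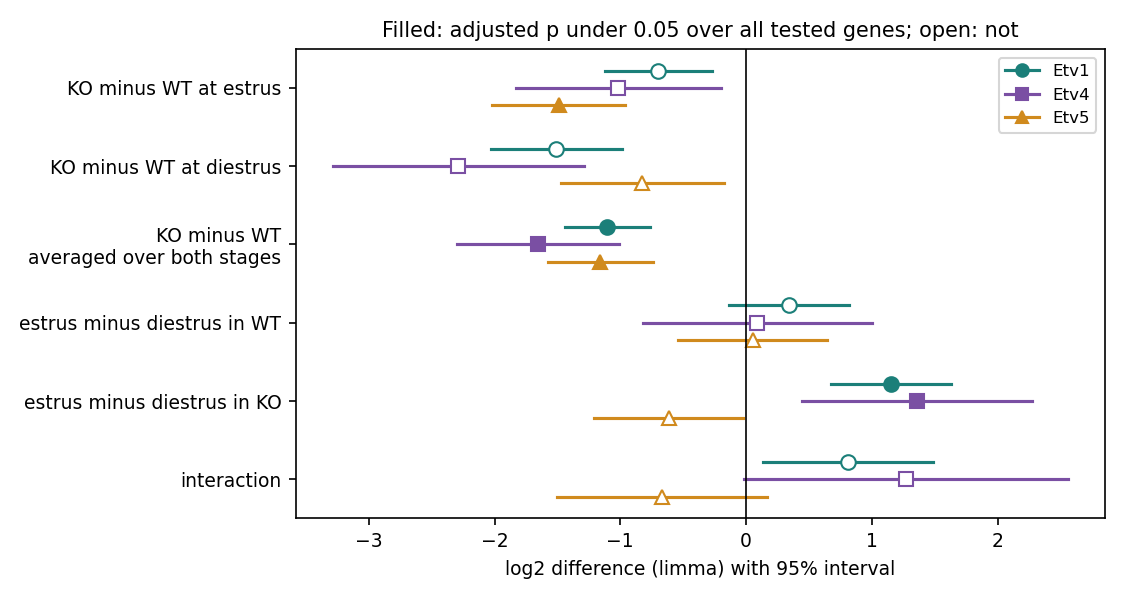
Log2 difference of Etv1 (circles), Etv4 (squares) and Etv5 (triangles) in 6 limma comparisons, with 95% intervals (lines); filled symbols passed an adjusted p of 0.05 over all tested genes. In the 3 comparisons of KO with WT all intervals lie below 0, and the 3 intervals of estrus minus diestrus in WT include 0.

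Within estrus, Etv5 was called lower in KO (log2 difference -1.49 ± 0.24, SE, limma adjusted p = 0.0165), a fall of 2.81-fold. Of all tested genes 2.94% were called lower and 4.20% in either direction. Etv1 had a difference of -0.70 ± 0.20 (adjusted p = 0.0608) and Etv4 of -1.02 ± 0.37 (adjusted p = 0.115), and neither passed. KO and WT estrus libraries did not overlap for Etv1 and Etv5, with KO lower, as in 13.1% of tested genes. The exact permutation p was 0.1 for Etv1 and Etv5, the smallest that 3 against 3 allows, and 0.2 for Etv4. The Etv5 call was lost without WT estrus 3 (log2 difference -1.26, adjusted p = 0.0521), the WT library with the highest Etv5 count, and Etv1 was called without WT estrus 1 (-0.82, adjusted p = 0.0481). Removing a trend with gene length and GC content left the Etv1 difference at -0.40.

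Within diestrus, 0 of the 3 were called by limma, in a comparison that called 0.0395% of tested genes. The unadjusted p was 4.27e-05 for Etv1, 0.000325 for Etv4 and 0.0169 for Etv5, so that 3 of 3 were under 0.05, against 5.92% of all tested genes. The log2 differences were -1.51 ± 0.24 (SE) for Etv1 (adjusted p = 0.0649), -2.29 ± 0.46 for Etv4 (0.150) and -0.82 ± 0.30 for Etv5 (0.678). By p-value Etv1 stood 10th and Etv4 32nd of 15180 genes. All 3 had both KO libraries below both WT libraries, as did 21.6% of tested genes. Etv1 was called without KO estrus 3 (adjusted p = 0.0438) or without WT estrus 1 (0.0467), at the same difference. With 2 libraries against 2 the exact permutation p was 0.333 for each, the smallest possible.

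The genotype difference of Etv5 was the larger one at estrus, and those of Etv1 and Etv4 at diestrus. The interaction term, which tests the KO minus WT difference at estrus less that at diestrus, was -0.67 ± 0.38 (SE, limma adjusted p = 0.440) for Etv5, 0.81 ± 0.31 for Etv1 (adjusted p = 0.293) and 1.27 ± 0.59 for Etv4 (adjusted p = 0.359). None of the 3 passed, nor did any other gene by limma (0% called, 2150 genes with an unadjusted p under 0.05). So the genotype differences were not shown to differ between the stages, although the unadjusted p was 0.0228 for Etv1. With 1 library left out the term ran from 0.65 to 0.97 for Etv1, from 0.81 (without WT diestrus 2) to 1.72 for Etv4 and from -0.86 to -0.44 (without WT estrus 3) for Etv5, and none passed.

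Estrus follows the peak of estrogen and diestrus is the progesterone phase of the cycle. In WT cells the log2 difference of estrus minus diestrus was 0.34 ± 0.22 (SE) for Etv1, 0.09 ± 0.42 for Etv4 and 0.05 ± 0.27 for Etv5, each with a limma adjusted p of 1. The 95% intervals ran from 1.10-fold lower to 1.77-fold higher at estrus for Etv1, from 1.77-fold lower to 2.00-fold higher for Etv4 and from 1.45-fold lower to 1.56-fold higher for Etv5, and changes within these ranges are not excluded. In this comparison 0% of tested genes were called, and 588 had an unadjusted p under 0.05.

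In KO cells Etv1 was higher at estrus than at diestrus by 1.15 ± 0.22 (SE) on the log2 scale (limma adjusted p = 0.00881) and Etv4 by 1.36 ± 0.42 (adjusted p = 0.0454). Etv5 had a difference of the other sign, -0.61 ± 0.27 (adjusted p = 0.135), and was not called. The 2 calls stand against 7.67% of tested genes called higher at estrus in KO and 16.6% called in either direction. Both KO diestrus libraries lay below all 3 KO estrus libraries for Etv1 and Etv4, as in 25.0% of tested genes. The Etv1 call was lost without KO diestrus 1 (difference 0.99, adjusted p = 0.0775) or KO diestrus 2 (1.31, adjusted p = 0.0887). The Etv4 call held in 3 of the 10 fits with 1 library left out. It was lost without KO estrus 1 (adjusted p = 0.102), KO estrus 2 (0.118), KO diestrus 1 (0.228), KO diestrus 2 (0.171), WT estrus 1 (0.0534), WT diestrus 1 (0.0501) or WT diestrus 2 (0.0514). With stage labels permuted within each genotype, the exact two-sided p of estrus against diestrus over both genotypes was 0.01 for Etv1, the smallest possible, 0.11 for Etv4 and 0.24 for Etv5.

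Across the ETS family the PEA3 genes were of low to middle abundance. Per kilobase of exon (the union of annotated exons), WT estrus cells held 56.9 ± 17.1 normalized counts of Etv5 (SD, n = 3), 35.8 ± 12.0 of Etv4 and 19.5 ± 2.89 of Etv1. By the exon union, the ranges of Etv4 and Etv5 overlapped in these libraries, and that of Etv1 lay below both. This gap depends on the length used. By the longest transcript the means lay closer, at 58.7 for Etv5, 46.3 for Etv4 and 39.4 for Etv1. Etv5, Etv4 and Etv1 ranked 11th, 14th and 16th of 25 ETS genes in the table by the exon union. By the longest transcript they ranked 12th, 13th and 14th. In KO diestrus they ranked 13th, 16th and 17th, at 30.2 ± 5.51, 6.44 ± 1.37 and 5.34 ± 0.85 counts per kilobase (n = 2). The most abundant ETS genes in WT estrus were Ets2, at 4243 counts per kilobase, and the epithelial factor Elf3, at 3177.

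**Figure D3:**
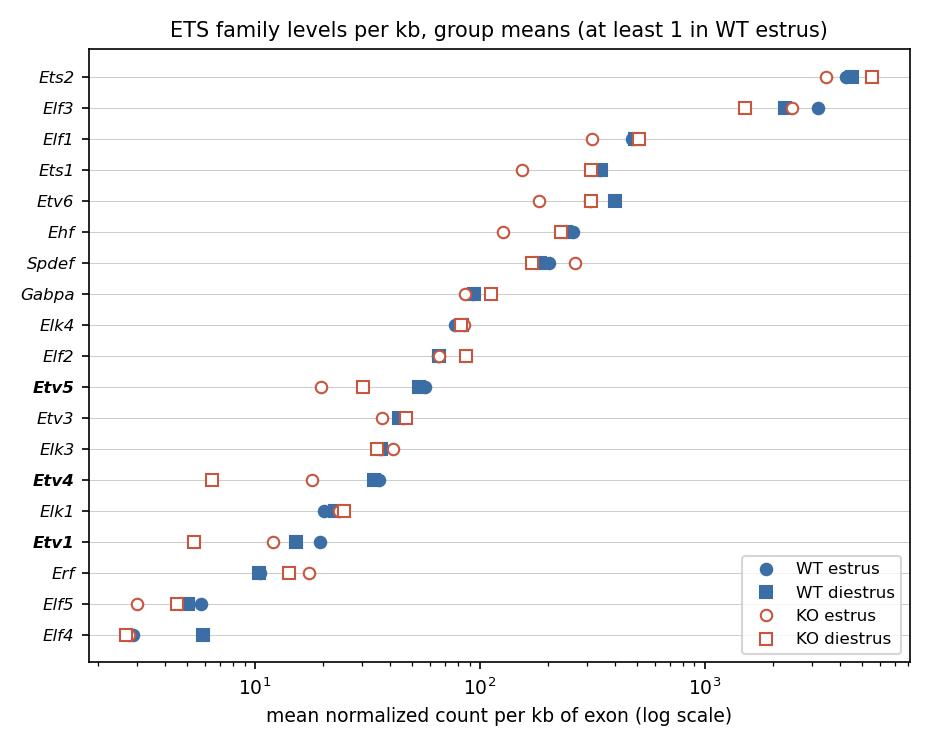
Mean normalized count per kilobase of exon (x axis, log scale) of each ETS gene with at least 1 such count in WT estrus, in the 4 groups (WT blue and filled, KO red and open, circles estrus, squares diestrus). The KO symbols of Etv1, Etv4 and Etv5 (bold) lie left of their WT symbols at both stages.

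Of the other ETS genes 16 were tested. At estrus 3 of them were called lower in KO (2.94% of all tested genes were) and 0 higher, with a median log2 difference of -0.21 against -0.01 over all genes. Ets1, a factor of many epithelial and immune cells, fell from 2889 ± 169.8 to 1310 ± 206 counts (SD, n = 3 and 3; log2 -1.15 ± 0.16, SE, limma adjusted p = 0.00833). The epithelial factor Ehf fell (log2 -1.06 ± 0.19, adjusted p = 0.0225), and so did the repressor Etv6 (-0.79 ± 0.18, adjusted p = 0.0381). The Ehf call was lost without WT estrus 2 or WT estrus 3, and the Etv6 call in 7 of the 10 fits with 1 library left out, over which the differences ran from -1.20 to -0.86 for Ehf and from -0.96 to -0.60 for Etv6. Over both stages 1 of the 16, Ets1, was called (-0.65 ± 0.12, adjusted p = 0.0457), and in 1 of 10 fits with 1 library left out (-0.76 to -0.54), and the list's median was -0.05. At diestrus 0 of the 16 were called by limma and 2 had an unadjusted p under 0.05. The ETS repressor Erf, which ERK excludes from the nucleus, had a difference over both stages of 0.56 (adjusted p = 0.403), at 38.0 counts in WT and 63.0 in KO estrus.

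ERK feedback and output genes, which are induced by the same pathway, were not called lower beside the PEA3 genes. Of 17 tested ERK feedback and output genes, limma called 0 at estrus, 0 at diestrus and 0 over both stages, and 5, 1 and 2 had an unadjusted p under 0.05. Among all tested genes 25.8%, 5.92% and 14.7% had such a p in these 3 comparisons, to be set beside the counts of this and the other lists. Over both stages 13 of the 17 had a difference above 0, and the lowest was -0.21, while each of the PEA3 genes was at -1.10 or below. The median was 0.18, against -0.01 over all genes. Dusp6, an ERK phosphatase that is usually induced together with the PEA3 genes, had 3519, 4183 and 3788 counts in WT estrus and 3178, 3845 and 4864 in KO estrus, and 3665 and 4941 against 5076 and 6849 at diestrus (0.25 over both stages, adjusted p = 0.448). Egr1, an immediate-early factor with the highest mean of the list, had a difference of 0.41 (adjusted p = 0.377), and Ier3 had one of -0.21 (adjusted p = 0.571). In the stage comparison within KO cells 4 of the 17 were called, Ccnd1 (cyclin D1) higher at estrus (log2 1.48) and Dusp4 (-0.80), Epha2 (-0.79) and Spred1 (-1.01) lower. Of these, Ccnd1 was not called without KO diestrus 2, Dusp4 and Epha2 without either KO diestrus library, and Spred1 in 7 of 10 fits.

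**Figure D4:**
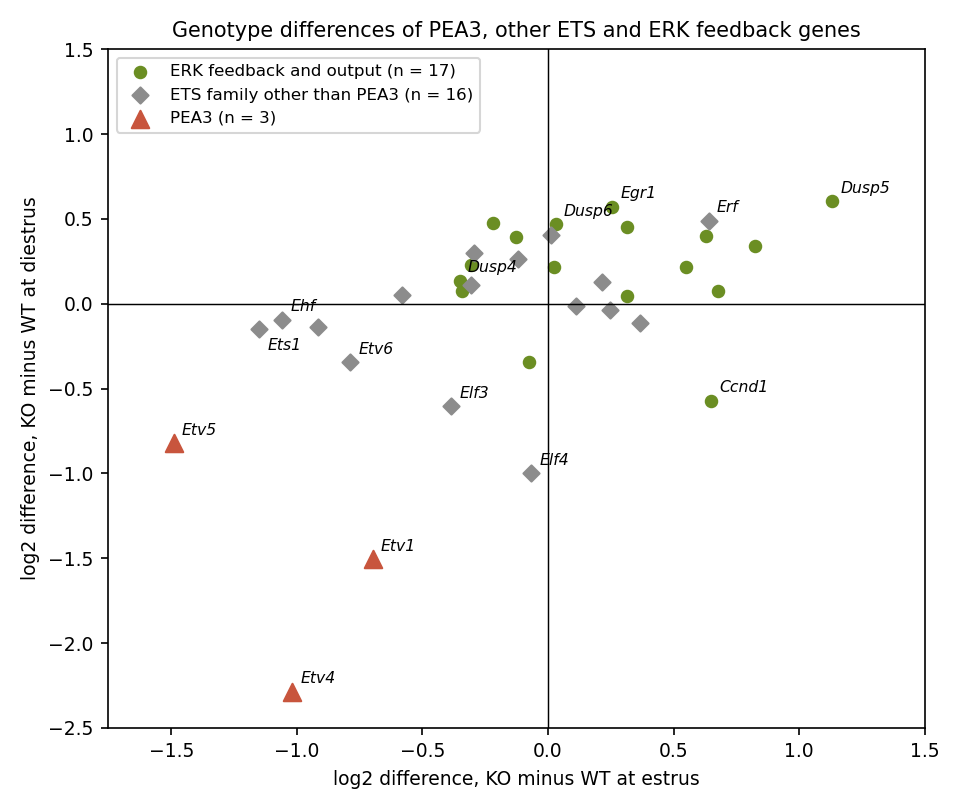
Log2 difference KO minus WT at estrus (x axis) and at diestrus (y axis) for the PEA3 genes (red triangles, n = 3), the other tested ETS genes (grey diamonds, n = 16) and ERK feedback and output genes (green circles, n = 17). The PEA3 genes lie below 0 on both axes, with diestrus differences of -0.82 to -2.29, and 15 of the 17 feedback genes lie above 0 at diestrus.

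Genes of the ERK cascade, which leads to the PEA3 genes, were with 1 exception not called between genotypes. Of 18 tested members, Mapk3, which encodes ERK1, was called higher in KO at estrus (log2 0.59 ± 0.15, SE, limma adjusted p = 0.0451; 883, 801 and 749 counts in WT and 1356, 1160 and 1161 in KO), and in 2 of the 10 fits with 1 library left out (0.52 to 0.66). The other 17 were not called at estrus, and over both stages 0 of 18 were called (2 with an unadjusted p under 0.05). Of 10 tested receptor tyrosine kinase genes 0 were called by limma at estrus, at diestrus or over both stages, with 2, 3 and 0 unadjusted p-values under 0.05. Among them the FGF receptor gene Fgfr2 had 10994 counts in WT estrus and 8371 in KO estrus (adjusted p = 0.342), and Erbb3 had 3108 and 1796 (adjusted p = 0.171).

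The repressor and degradation genes of the PEA3 group were not called between genotypes either. Of 12 such genes limma called 0 at estrus, 0 at diestrus and 0 over both stages, with 4, 0 and 2 unadjusted p-values under 0.05. Cic had 230, 293 and 263 counts in WT estrus and 442, 317 and 226 in KO estrus, and 213 and 288 against 303 and 227 at diestrus (0.18 over both stages, adjusted p = 0.684). The 2 genes of highest level were Ddb1 and Trib1, parts of the COP1 ligase and its adaptors. Ddb1 had a difference of -0.23 (adjusted p = 0.409) and Trib1 one of 0.14 (adjusted p = 0.657). RNA levels do not report on the phosphorylation of Capicua or on protein turnover, which were not measured.

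Of 20 genes reported elsewhere as PEA3 targets 10 were tested, and 1 was called between genotypes. Myb, a proliferation factor that depends on Etv4 and Etv5 in the developing kidney, had 372, 310 and 576 counts in WT estrus and 104, 147 and 90 in KO estrus, and 516 and 486 against 208 and 350 at diestrus. It fell at estrus (log2 -1.85 ± 0.27, SE, limma adjusted p = 0.0125) and over both stages (-1.37 ± 0.21, adjusted p = 0.0215). The latter call was lost without any 1 of the 4 diestrus libraries, with differences of -1.56 to -1.19. Met, another kidney target, had a difference of -0.28 over both stages (adjusted p = 0.592), and the matrix protease gene Mmp14 one of 0.19 (adjusted p = 0.540). Icam1 had one of -0.46 (adjusted p = 0.220). Spp1, at 32 counts or fewer in every library, had one of 1.69 (adjusted p = 0.202). Over both stages 4 of the 10 were above 0 and 6 below, with a median of -0.09, so the list as a whole lay near the median of all genes.

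The estrus to diestrus comparison in KO cells, in which Etv1 and Etv4 were higher at estrus, called further genes of these lists. Of the other ETS genes Elf3 (0.70) and Spdef (0.62), both of secretory epithelia, were higher at estrus, and Ets1 (-1.01), Ehf (-0.86), Etv6 (-0.81) and Ets2 (-0.69) were lower. Lower at estrus too were the receptor genes Fgfr3 (-1.22) and Met (-1.25), the adaptor gene Shc1 (-0.63), the COP1 pathway genes Cop1 (-0.46) and Trib3 (-1.50), and Myb (-1.27) and Ptgs2 (-1.08) of the target list, while Mapk3 was higher (0.61). All are limma log2 differences, each lost in at least 1 of the 10 fits with 1 library left out. The Cop1 call held in only 2 of these fits (-0.51 to -0.38). Those of Ets2, Fgfr3, Met, Shc1 and Ptgs2 held in 6 each, and the rest in 7 to 9. Thus 6 of 16 other ETS genes, 4 of 17 feedback genes, 2 of 18 cascade genes, 2 of 10 receptor genes, 2 of 12 repressor and degradation genes and 3 of 10 targets were called, beside the 16.6% of all tested genes. Met is on both the receptor and the target list and enters both counts.

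The 3 members did not follow one pattern over the 10 libraries. Pearson's r of log2 values over the libraries, given as a description since the libraries share their groups, was 0.911 for Etv1 with Etv4, 0.641 for Etv4 with Etv5 and 0.499 for Etv1 with Etv5. After each group's mean was removed it was 0.459, 0.701 and 0.137. The nearest patterns were sought among 10293 genes with a symbol and a mean of at least 50. Genes with predicted, clone or -ps pseudogene names were left out. The 5 nearest to Etv1 were Wnt4 (r = 0.930), Hdac1, Tmem206, Dock2 and Etv4. Wnt4, a paracrine signal induced by progesterone, had 2611, 3153 and 2593 counts in WT estrus, 2067, 2461 and 2202 in KO estrus, 2261 and 2583 in WT diestrus and 1583 and 1302 in KO diestrus. The 5 nearest to Etv4 were Fam20a (r = 0.951), Piezo2, Cep70, Tubg1 and Kyat3. After group means were removed the r of Fam20a with Etv4 was 0.949. Fam20a was picked by its r over these same libraries, so this value is no separate check. Fam20a had 25 counts in each KO diestrus library. The 5 nearest to Etv5 were Myb (r = 0.933), Exoc8, Baiap2, Plekha5 and Phf20l1. Myb, picked in the same way, had an r of 0.680 with Etv5 within groups.

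Markers of other cells were compared beside these values. The summed counts of 12 basal and myoepithelial markers ran from 750 to 2228 in WT estrus, 672 to 1383 in KO estrus, 650 to 1007 in WT diestrus and 542 to 991 in KO diestrus, with overlap between genotypes at both stages. Those of 10 luminal progenitor markers ran from 7264 to 9849, 9345 to 11659, 6849 to 7726 and 8067 to 8081 in the same order. At diestrus these progenitor sums were higher in both KO than in both WT libraries. The KO diestrus sums lay within the range of WT estrus and below all KO estrus sums. Of the 9 tested progenitor markers limma called 0 between genotypes at estrus, at diestrus or over both stages. Between stages in KO cells it called Cd14 higher at estrus (log2 0.63, adjusted p = 0.0441) and Itga2 lower (-1.51, adjusted p = 0.0189). Fibroblast markers moved with the diestrus difference: the sum of 7 genes was 1001 and 2132 in WT and 307 and 213 in KO diestrus, and it was 1275 to 2144 in WT and 212 to 3329 in KO estrus. Nearly all of it came from Dcn and Col6a3, since Col1a1, Col1a2, Col3a1, Pdgfra and Lum were at 21 counts or fewer in every library. Of the basal, progenitor and fibroblast lists no gene was at 0 in all libraries. The hormone-sensing sum was 453748 and 499414 in WT and 402309 and 382272 in KO diestrus. Of the 13 tested hormone-sensing markers limma called 0 between genotypes at estrus, at diestrus or over both stages. Unadjusted p-values under 0.05 numbered 2, 2 and 3. At diestrus 10 of the 13 were below 0 and 3 above, with a median of -0.28 against -0.004 over all genes. Over both stages 8 were below 0 and 5 above, with a median of -0.22 against -0.01. Krt19 had all 5 KO libraries (76716 to 97219) below all 5 WT libraries (102524 to 125833), as in 1.15% of tested genes. Between stages in KO cells limma called 4 of the 13, beside 16.6% of all tested genes. Ly6a (Sca-1, log2 1.02), Gata3 (0.74) and Wnt4 (0.64) were higher at estrus, and Prom1 (-1.66) was lower. Macrophage sums (7 genes) were lower in KO at diestrus, at 635 and 567 in WT against 435 and 432, but ran from 321 to 610 in WT and from 579 to 816 in KO estrus. Of the 5 tested macrophage markers limma called 0 between genotypes. Between stages in KO cells it called C1qb (log2 4.04, adjusted p = 0.0129) and Cd74 (2.35, adjusted p = 0.0342) higher at estrus. C1qb had at most 44 counts in any library. Lymphocyte sums (4 genes, nearly all from Trbc2) were 64 to 92 in WT and 139 to 188 in KO estrus, against 131 and 111 in WT and 106 and 88 in KO diestrus, where the order was the opposite. Trbc2, the only tested gene of this list, was called higher in KO at estrus (log2 1.13, limma adjusted p = 0.0276), where 4.20% of tested genes were called. Endothelial sums (6 genes) ran from 547 to 1333, mostly from Vwf. Of the tested basal, fibroblast and endothelial markers limma called 0 between genotypes or between stages. The part of these markers in the PEA3 differences was not tested.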

How the data were processed

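RNA of 10 libraries was analysed from 1 deposited table. Per the submitters' processing notes, reads were processed with STAR, HTSeq and DESeq2 on mm10; versions, settings and annotation release are not given in the sources used here. The values form a score that the authors deposited: read counts normalized per library and rounded to whole numbers, so tests on raw counts were not run. Groups came from the library names. KO titles also contain WT, but their names and genotype entries both give the KO.

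Symbols, positions and exon lengths came from GENCODE M21 (GRCm38), which holds 26249 of the 26312 gene IDs. Of these genes 15180 with a mean of at least 10 were fitted with limma 3.58.1 in R 4.3.3 on log2(value + 1), with a mean for each of the 4 groups and a spread that follows the level. Fold changes on this scale understate those of low genes. Exact permutation tests used the same log2 values. The rule for named genes was the members, up to 6 called genes per pathway list, Cic, Erf and Dusp6, and the 5 nearest patterns per member. For lists with no call between genotypes, 2 genes of the highest mean were also named. Rps6ka3, marker genes, and Mmp14, Icam1 and Spp1 of the target list were named beside this rule. Members and lists were chosen with earlier results of these data known, so they are not independent support. Same-numbered libraries are not known to be related: their deviations from group means correlated by -0.132 to 0.187. Libraries of different numbers correlated by -0.147 to 0.132. In groups of 2 the deviations mirror each other, so these ranges say little about pairing. Alternatives were other pseudocounts (0.5, 5), filters and scalings, no trend, library weights, a replicate block, the compared groups alone, removal of a length and GC trend, and each library left out. Figures used Python 3.11.15 and matplotlib 3.10.9.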

Additional observations from a re-analysis of the deposited data

How the results depend on the processing

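Limits: 2 or 3 libraries per group bound every p-value, depth before normalization is unknown, and low values such as those of Etv4 carry the most counting error. The KO minus WT difference of each member kept its sign under all alternatives at both stages. All values are log2 differences, and the cause of each change was not tested. Over both stages the call was lost with no trend in the spread for Etv1 (-1.10), Etv4 (-1.65) and Etv5 (-1.16), and with no filter on low values for Etv4 (-1.65) and Etv5 (-1.16). At estrus Etv5 was not called with no trend or with the compared groups alone (-1.49 each). At diestrus calls were gained for Etv1 with library weights (-1.51), a length and GC trend removed (-1.56) or the compared groups alone (-1.51), and for Etv4 with library weights (-2.29). Estrus minus diestrus of Etv4 in KO was not called with pseudocount 5 (1.21), no filter (1.36), quantile normalization (1.26), no trend (1.36), a length and GC trend removed (1.11) or the compared groups alone (1.36).

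With a replicate block, although replicate numbers are not known to pair libraries, Etv1 was called at estrus (-0.70), Etv4 between stages in KO was not (1.40), Etv5 between stages in WT changed sign (-0.0032), and 996 genes were called at estrus in place of 637.

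With 1 library left out, Etv1 ran from -0.83 to -0.58 at estrus, -1.67 to -1.35 at diestrus, -1.18 to -1.02 over both stages and 0.99 to 1.31 between stages in KO. Etv4 ran from -1.88 to -1.42 over both stages, 1.06 to 1.68 between stages in KO and -0.37 to 0.54 in WT. Etv5 ran from -1.68 to -1.26 at estrus, -1.25 to -1.04 over both stages and -0.17 to 0.24 between stages in WT.

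Counts of genes called moved more. The 637 at estrus became 44 with no trend, 23 with the compared groups alone, 89 with no filter, 229 with library weights, 189 with a length and GC trend removed and 67 to 909 with 1 library left out. Their split of 191 higher and 446 lower became 271 and 303 with equal totals and 394 and 422 with quantile normalization. The 101 over both stages, 38 higher and 63 lower, became 51 (29 and 22) with equal totals, 60 (31 and 29) with quantile normalization, 10 with no filter, 4 with no trend and 261 with library weights. The 6 at diestrus became 147 with library weights, 98 with the compared groups alone and 0 with no filter (1413 with an unadjusted p under 0.05, limma). The 2524 between stages in KO became 1626 with no filter, 1451 with a length and GC trend removed, 3884 with library weights and 39 to 2894 with 1 library left out.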
